A study of Mus musculus with 5 samples.

Results

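The 32 genes described here are target genes and regulators of the p53 pathway, taken by gene symbol from an expression table of 54699 mouse genes. All 32 symbols were found. The table holds 1 RNA sequencing library for each of 5 groups of B16F10 cells, a mouse melanoma line that was infected with lentivirus and grown in serum-containing DMEM. Forced expression of mouse Myod1, the transcription factor that starts the skeletal muscle programme, and forced expression of mouse Pparg, the nuclear receptor that starts the adipocyte programme, were both compared with 1 library of cells that carried the empty expression vector, all collected on day 8. Knockdown of Setdb1, a histone H3 lysine methyltransferase, with a short hairpin RNA was set against a culture with the empty knockdown vector, both collected on day 7. Each library is a bulk culture of infected cells, and the labels name no clone, promoter or cell selection. With 1 library per group there was no spread between replicates, so none of the differences could be checked against replicates, and p-values are not given. The Myod1 and Pparg comparisons share their control library, and their results are therefore not separate observations.

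p53, encoded by Trp53 in the mouse, is a transcription factor that is held at a low level by the ubiquitin ligase Mdm2 and by Mdm4, which masks its activation domain. DNA damage and other stresses release p53 from this inhibition, mainly at the protein level, after which it binds pairs of a short palindromic element in or near its target genes. Its targets stop the cell cycle, lower growth signalling, repair DNA, alter metabolism or start apoptosis, and several of them, Mdm2 and Ppm1d among them, feed back on p53 itself. Many of the same genes also answer to other transcription factors, so their RNA is not a direct reading of p53 activity.

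The libraries held between 16214802 and 18300670 assigned reads. Levels are FPKM, that is, fragments scaled by gene length and by the size of the library, and so are per length. Of the 32 genes, 28 reached 1 FPKM in at least 1 library, as did 12842 genes of the table, and these were compared. Perp, Eda2r, Fas and Pmaip1 did not reach it. Gdf15 passed only through the Pparg library at 1.10 FPKM, and Ddb2 only through the empty expression vector library at 1.03 FPKM. A log2 ratio is that of FPKM + 1, which understates differences of low genes, and "at least 2-fold" refers to it. A fold is the plain ratio of FPKM, and its range is the 95% exact interval from the split of reads between both libraries, which covers counting error only. The targeted genes followed the labels: Myod1 was at 260 FPKM and Pparg at 44.4 FPKM in their own libraries, with 0 reads in the other 4 in each case, and Setdb1 was at 0.867 FPKM after knockdown against 9.82 FPKM in its control. All 8 melanocytic markers were detected in all 5 libraries. They summed to 3306 FPKM with Myod1 and 2308 with Pparg against 7816 in the shared control, with 5 and 6 of the 8 at least 2-fold lower than in both controls, beside 4.42% and 0.849% of all genes. After Setdb1 knockdown they summed to 9098 FPKM against 8542, with 2 of the 8 lower beside 7.56% of all genes. Their part in the results below was not tested. The 6 skeletal muscle markers summed to 21093 FPKM in the Myod1 library and to at most 14.9 FPKM elsewhere, and the 6 adipocyte markers to 304 FPKM in the Pparg library and to at most 0.220 FPKM elsewhere. Endothelial, fibroblast and keratinocyte markers summed to at most 0.596, 2.50 and 0.795 FPKM. The 6 immune markers summed to 4.68 FPKM with Myod1, 1.87 with Pparg, 12.2 in the empty expression vector library, 18.9 after Setdb1 knockdown and 3.996 in the empty knockdown vector library. Nearly all of this was the lysosomal gene Cd68, while Cd3e, which defines T cells, had 0 reads in all libraries, and the part of these markers in the results below was not tested.

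RefSeq promoter windows (GRCm38.p6, from 250 bases before to 50 bases after an annotated start) were at hand for 24 of the 32 genes and were searched for the p53 decamer, the palindromic element of which a p53 site holds a pair. The decamer reads the same on both strands, and only matches without a mismatch were counted. It was present in at least 1 window of 9 of the 24 genes (37.5%), namely Trp53, Mdm2, Ppm1d, Ccng1, Sesn1, Bax, Aen, Ei24 and Polk. Of all 27025 genes with a window, 9.55% had one. Pairs of decamers with a spacer of 0 to 13 bases were searched only in the 250 bases before the start. A pair with at most 1 mismatch in all was found in 3 of the 24, Bax, Ccng1 and Polk, against 1.02% of all genes. The E-box CAGCTG, the element bound by Myod1, was found in 4 of the 24 (16.7%, Mdm2, Mdm4, Ppm1d and Ei24) against 18.3% of all genes. Both elements are described by their letters alone, and binding was not measured. The stretches around the decamer are shown for p53's own gene and its inhibitor Mdm2, for the 3 genes with a nearly perfect pair, and for Sesn1, which was at least 2-fold higher with Myod1. The starts used for Sesn1 and Polk lie within the span of the gene. Capitals mark the decamer.
Mdm2, chr10:117710915-117710964, minus strand: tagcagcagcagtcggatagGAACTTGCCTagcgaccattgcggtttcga
Trp53, chr11:69580264-69580313, plus strand: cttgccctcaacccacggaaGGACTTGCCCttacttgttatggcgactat
Ccng1, chr11:40755442-40755491, minus strand: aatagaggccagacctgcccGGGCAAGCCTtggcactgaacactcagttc
Sesn1, chr10:41887246-41887295, plus strand: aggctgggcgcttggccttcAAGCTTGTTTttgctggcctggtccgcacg
Bax, chr7:45467070-45467119, minus strand: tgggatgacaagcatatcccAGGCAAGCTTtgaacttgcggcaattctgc
Polk, chr13:96519389-96519437, minus strand: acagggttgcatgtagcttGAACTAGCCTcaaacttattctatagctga

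Btg2 and Plk2, which were higher in all 3 treatments, and Bbc3 and Sesn2, which had the highest log2 ratios after Setdb1 knockdown, held no perfect decamer in their windows. Their closest pairs had 4, 5, 3 and 4 mismatches. Pairs with this many mismatches are common: 39.6% of all windows held a pair with at most 3 mismatches and 85.4% one with at most 4. The number of mismatches does not tell whether p53 binds a pair, for these 4 genes or for others. The 250 bases before the start are printed with that closest pair in capitals, so that the promoters can be set beside the perfect elements above. The start used for Bbc3 lies within the span of the gene.
Btg2, chr1:134079156-134079405, minus strand: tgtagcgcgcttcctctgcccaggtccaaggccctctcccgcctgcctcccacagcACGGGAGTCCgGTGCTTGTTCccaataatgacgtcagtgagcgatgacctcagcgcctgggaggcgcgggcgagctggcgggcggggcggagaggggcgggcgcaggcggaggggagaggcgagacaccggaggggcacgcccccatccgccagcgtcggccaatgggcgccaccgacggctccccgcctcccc
Plk2, chr13:110394794-110395043, plus strand: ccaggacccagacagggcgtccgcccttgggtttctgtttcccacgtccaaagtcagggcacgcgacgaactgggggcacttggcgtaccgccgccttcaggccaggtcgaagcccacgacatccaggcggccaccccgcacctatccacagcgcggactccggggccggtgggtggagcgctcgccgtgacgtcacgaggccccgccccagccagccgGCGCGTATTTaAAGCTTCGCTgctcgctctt
Bbc3, chr7:16309333-16309582, plus strand: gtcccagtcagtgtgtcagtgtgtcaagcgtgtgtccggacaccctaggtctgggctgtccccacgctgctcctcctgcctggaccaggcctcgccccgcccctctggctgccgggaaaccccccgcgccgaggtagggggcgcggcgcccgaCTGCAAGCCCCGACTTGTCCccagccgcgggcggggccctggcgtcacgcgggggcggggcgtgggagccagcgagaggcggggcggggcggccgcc
Sesn2, chr4:132510457-132510706, minus strand: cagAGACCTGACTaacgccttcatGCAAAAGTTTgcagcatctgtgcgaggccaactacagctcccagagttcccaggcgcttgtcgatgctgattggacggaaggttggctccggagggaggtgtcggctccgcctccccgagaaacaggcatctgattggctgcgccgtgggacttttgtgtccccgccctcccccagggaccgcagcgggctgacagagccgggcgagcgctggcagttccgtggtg

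In each treated culture a few members were at least 2-fold higher than in their control, and most did not reach this difference. With Myod1 the share of such members was close to that of all genes. Btg2 and Plk2 were at least 2-fold higher in all 3 treatments, which held for 53 of the 12842 genes (0.413%). With Myod1, 5 of the 28 members compared were at least 2-fold higher (Btg2, Plk2, Phlda3, Ccng1 and Sesn1), a share of 17.9% beside 14.0% of all genes. With Pparg, 6 were higher (Btg2, Plk2, Phlda3, Ccng1, Dcxr and Bbc3), 21.4% beside 4.22%. After Setdb1 knockdown 5 were higher (Bbc3, Sesn2, Btg2, Plk3 and Plk2), 17.9% beside 9.34%. No member was at least 2-fold lower in any of the 3, while 7.55%, 2.30% and 10.3% of all genes were. This count of 0 rests on adding 1 to the FPKM: with 0.1 added, Ddb2, Mdm4 and Polk were at least 2-fold lower with Myod1 and Polk and Rrm2b after Setdb1 knockdown, beside 13.2% and 16.3% of all genes. Median log2 ratios of the 28 members were 0.24, 0.32 and 0.18 in the same order, beside 0.02, -0.02 and 0.00 over all genes. These medians depended on the control and the scaling: against the other control they were 0.08, 0.06 and 0.62, and the Myod1 median was -0.10 after division by the column sum. The other 19 members did not reach this limit in any treatment. In bulk cultures fewer cells of a type and less RNA per cell cannot be told apart, so each value is an average over the culture.

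**Figure D1:**
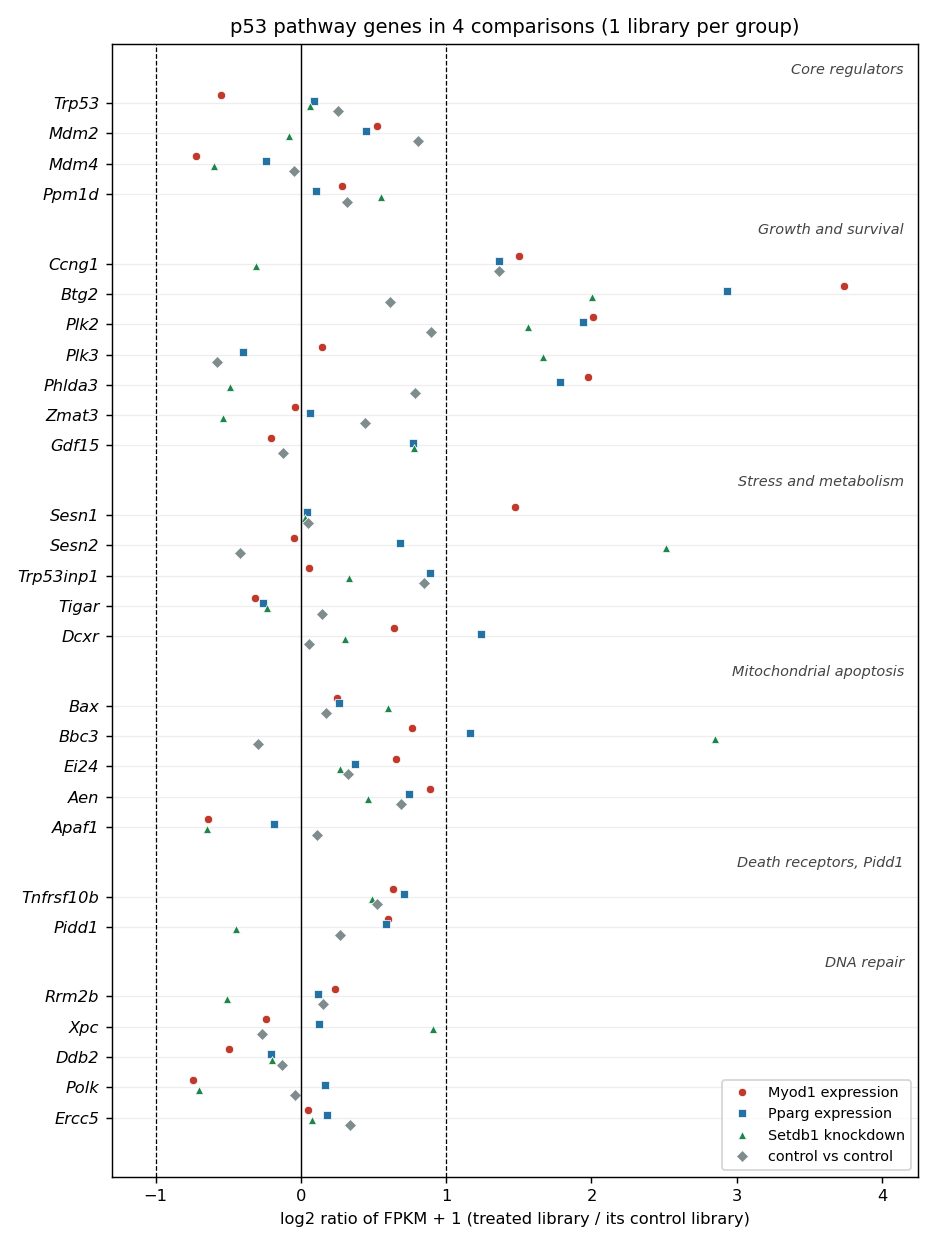
Log2 ratio of FPKM + 1 (horizontal axis) for the 28 p53 pathway genes that reached 1 FPKM, grouped by role, in the Myod1 (circles), Pparg (squares) and Setdb1 knockdown (triangles) libraries against their own controls and in the empty knockdown vector against the empty expression vector (diamonds). Dashed lines mark a 2-fold difference; Btg2 and Plk2 lie past it in all 3 treatments and no gene lies past it on the lower side.

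The control libraries themselves differed for these genes. In the empty knockdown vector library, compared with the empty expression vector library, Ccng1 was at least 2-fold higher, 1 of 28 members (3.57%) beside 1.23% of all genes, and none was lower beside 1.44%. The members' median log2 ratio between the controls was 0.21 against -0.00 over all genes. Of the 28 members 20 lay above 0, beside 5998 of all 12842 genes. The empty expression vector library had the lowest level of all 5 libraries for 14 of the 28 members, a position it held for 14.8% of all genes. The vectors and days of collection differ between the controls and cannot be told apart. Differences were therefore also counted against both controls in the same direction. This left 4 members for Myod1 (Btg2, Phlda3, Plk2 and Sesn1), 14.3% beside 11.9% of all genes. For Pparg 4 were left (Btg2, Bbc3, Dcxr and Plk2), 14.3% beside 3.34%, and for Setdb1 knockdown all 5, 17.9% beside 5.80%. Counts of lower members stayed at 0, beside 4.42%, 0.849% and 7.56% of all genes. The Setdb1 knockdown library had the highest level of 12 of the 28 members, against 25.9% of all genes.

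**Figure D2:**
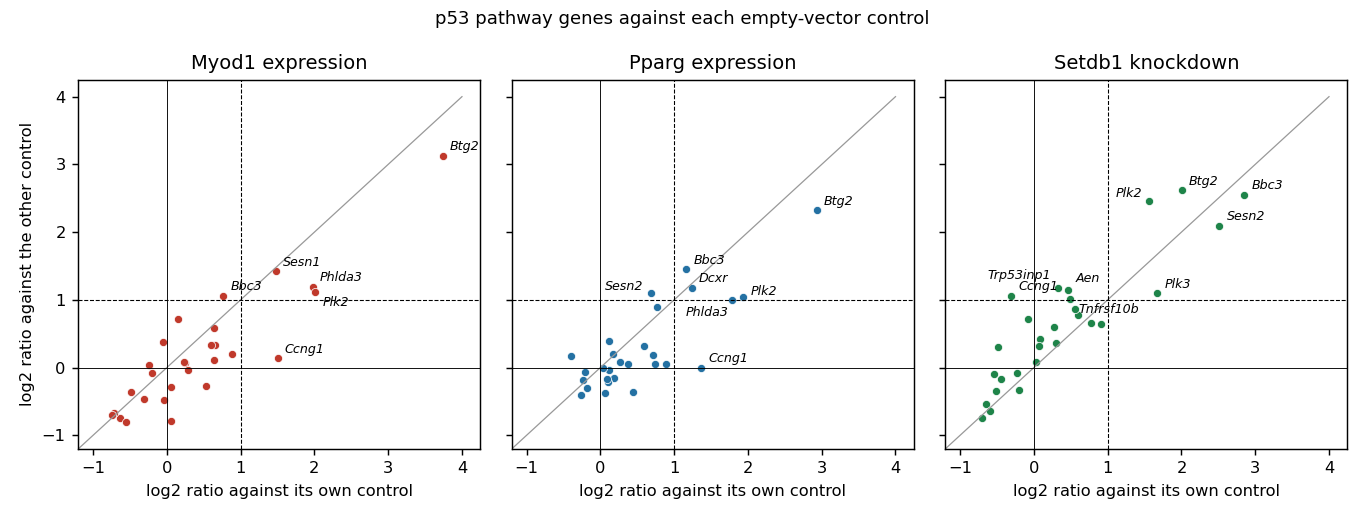
Log2 ratio of each p53 pathway gene against the control library of its own vector (horizontal axis) and against the other control library (vertical axis), 1 panel per treatment; the diagonal marks equal values and dashed lines a 2-fold difference. Btg2 and Plk2 lie past both lines in all panels, while Ccng1 lies past only 1 of them in each.

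None of the 4 core regulators reached a 2-fold log2 ratio against its own control. Trp53 was at 35.3 FPKM with Myod1, 55.5 with Pparg, 52.1 in the empty expression vector library, 65.2 after Setdb1 knockdown and 62.3 in the empty knockdown vector library. The Myod1 library was the lowest of the 5, at a fold of 0.678 (0.643 to 0.715) against its control, and Pparg and Setdb1 knockdown had log2 ratios of 0.09 and 0.06 against theirs, and of -0.16 and 0.32 against the other control. Mdm2, at once the main inhibitor of p53 and its target, was at 20.8, 19.6, 14.1, 24.0 and 25.4 FPKM in the same order of libraries. It was above the empty expression vector in both expression libraries, at log2 ratios of 0.53 and 0.45, but below the empty knockdown vector in both, at -0.28 and -0.36, so its direction depended on the control. In the Setdb1 knockdown its log2 ratio was -0.08 against its own control and 0.72 against the other.

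Mdm4, the partner of Mdm2 that lacks strong ligase activity of its own, was at 1.32, 2.24, 2.82, 1.44 and 2.69 FPKM. It was lower in the Myod1 and Setdb1 knockdown libraries than in both controls, at folds of 0.468 (0.408 to 0.537) and 0.537 (0.473 to 0.609) against their own. Its transcript model is long, at 14798 bases with a GC content of 43.3%, whereas the median of the genes compared was 3783 bases and 50.1%. When trends with GC content and length over all genes were subtracted, the log2 ratio of Mdm4 went from -0.72 to -0.24 with Myod1 and from -0.59 to 0.00 after Setdb1 knockdown. Ppm1d, the phosphatase that switches off p53 and its upstream kinases, was at 10.4, 9.09, 8.37, 16.1 and 10.7 FPKM. The Setdb1 knockdown library was the highest, at 1.51-fold (1.36 to 1.68) its control.

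**Figure D3:**
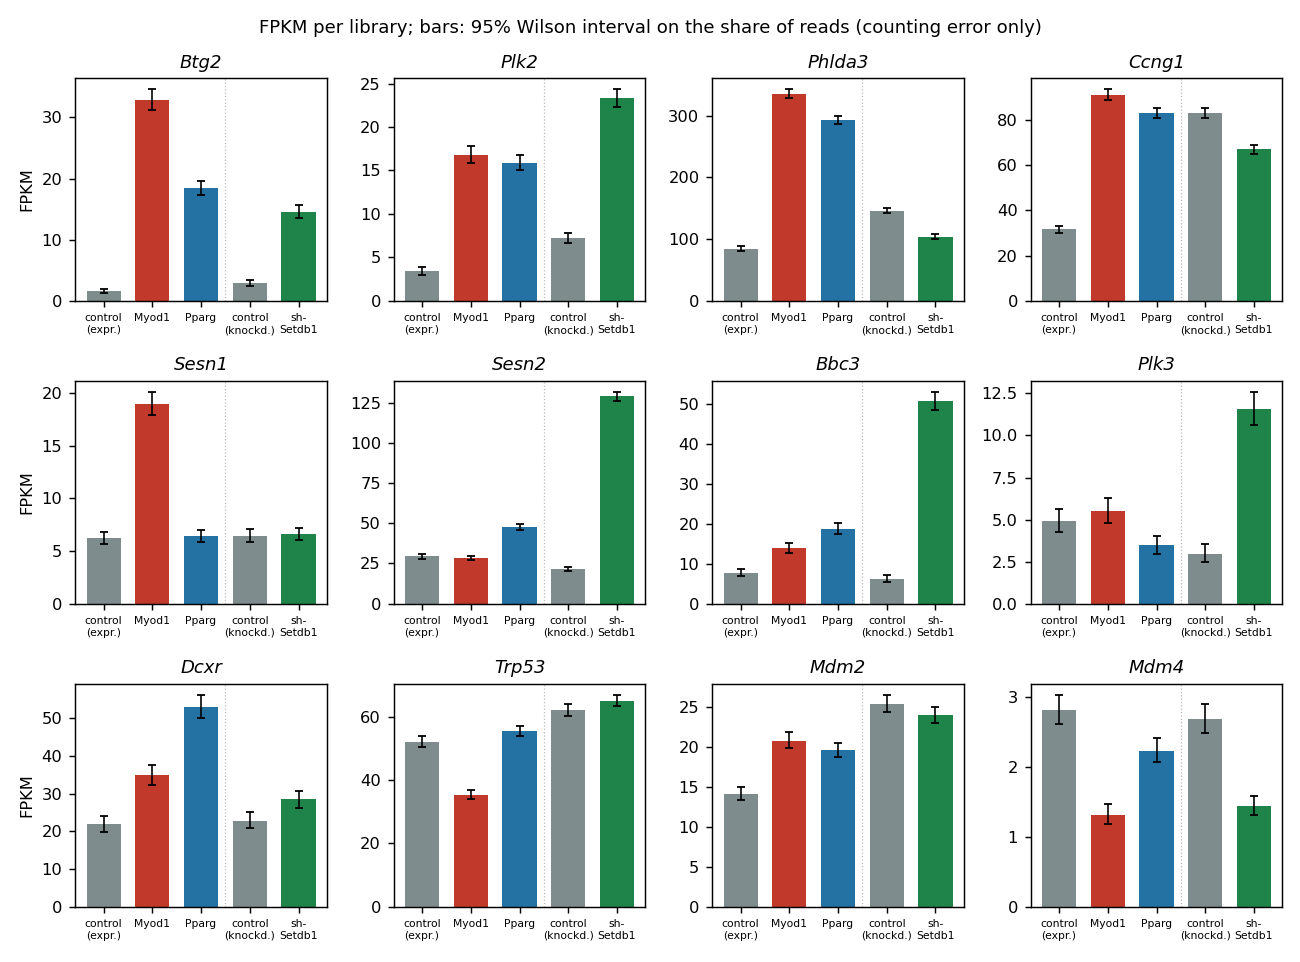
FPKM (vertical axis, from 0) of 12 p53 pathway genes in each of the 5 libraries, with grey bars for the empty vector controls and coloured bars for the treated libraries; error bars are 95% Wilson intervals on the share of reads and cover counting error only. Btg2 was at 1.54 and 2.88 FPKM in the controls and between 14.6 and 32.9 in the treated libraries, whereas Trp53 and Mdm2 varied less than 2-fold over all 5.

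Among the 7 targets that restrain growth or survival signalling, Btg2 showed the largest log2 ratios. Btg2, an antiproliferative protein that recruits the machinery for mRNA deadenylation, was at 32.9 FPKM with Myod1, 18.4 with Pparg, 1.54 in the empty expression vector library, 14.6 after Setdb1 knockdown and 2.88 in the empty knockdown vector library. All treated libraries lay above both controls, and the levels rested on 1419, 968 and 739 reads against 69 and 132. The folds were 21.4 (16.8 to 27.6) for Myod1, 12.0 (9.36 to 15.5) for Pparg and 5.06 (4.20 to 6.14) for Setdb1 knockdown. Against the other control they were 11.4, 6.40 and 9.45. The gene (ENSMUSG00000020423, chr1:134075170-134079120, minus strand) is among those whose promoter, shown above, lacks a perfect decamer.

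Plk2, a polo-like kinase of the G1 phase, was at 16.8, 15.9, 3.41, 23.3 and 7.22 FPKM. The 3 treated libraries were again the highest, although the controls differed from each other by 2.12-fold (1.82 to 2.47). The folds against own controls were 4.93 (4.30 to 5.67), 4.67 (4.08 to 5.36) and 3.23 (2.93 to 3.56). Its relative Plk3, a stress-responsive kinase, was at 5.50, 3.46, 4.89, 11.6 and 2.95 FPKM. Only the Setdb1 knockdown library stood out for Plk3, at 3.92-fold (3.22 to 4.80) its own control and 2.37-fold (2.01 to 2.80) the other.

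Phlda3, a pleckstrin homology protein that competes with Akt for membrane lipids, was the most abundant member in the expression libraries. It was at 336, 293, 84.5, 104 and 146 FPKM. Both expression libraries lay above both controls, at 3.98-fold (3.79 to 4.17) and 3.47-fold (3.31 to 3.63) the empty expression vector, and the Setdb1 knockdown library lay below its control at a fold of 0.712 (0.678 to 0.747). With Pparg the log2 ratio against the empty knockdown vector was 0.999, just under the limit. Trend subtraction left the Myod1 value at 1.49 and moved the Setdb1 knockdown value from -0.49 to -1.02, past the 2-fold limit, but against the other control the Setdb1 knockdown library was higher, at a log2 ratio of 0.30. Ccng1, or cyclin G1, which recruits a phosphatase to Mdm2, was at 91.0, 82.8, 31.5, 66.9 and 82.9 FPKM. Here the empty expression vector library was the single low one: the folds of 2.89 and 2.63 in the expression libraries compare with 2.63 (2.49 to 2.78) for the empty knockdown vector, and against that control they were 1.10 and 0.999. After Setdb1 knockdown the fold of Ccng1 was 0.807 against its own control and 2.12 against the other.

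The other 2 genes of this group were Zmat3, an RNA-binding regulator of splicing, and Gdf15, a secreted stress cytokine. Zmat3 stayed between 12.8 and 14.5 FPKM except in the empty knockdown vector library, at 19.1. Gdf15 was rare, with 2 reads in the Myod1 library, 39 with Pparg, 7 in the empty expression vector library, 32 after Setdb1 knockdown and 4 in the empty knockdown vector library. The Pparg and Setdb1 knockdown libraries had most of the reads, at 4.75-fold (2.10 to 12.6) and 7.23-fold (2.56 to 28.1) their controls, with wide intervals.

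The 2 sestrins, which lower mTORC1 activity and oxidative stress, were high in different libraries. Sesn1 was at 19.0 FPKM with Myod1 and at 6.41, 6.20, 6.60 and 6.46 in the Pparg, empty expression vector, Setdb1 knockdown and empty knockdown vector libraries. Only Myod1 stood apart, at 3.06-fold (2.73 to 3.44) its control and 2.94-fold (2.63 to 3.29) the other, and the remaining 4 libraries had overlapping counting intervals. Sesn2 was at 28.4, 47.7, 29.4, 129 and 21.7 FPKM. It was highest after Setdb1 knockdown, at 5.92-fold (5.58 to 6.29) its control and 4.38-fold (4.16 to 4.62) the other, and next with Pparg, at 1.62-fold (1.53 to 1.72). Sesn2 is also a known target of Atf4, the transcription factor of the integrated stress response, whose genes are given below.

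Dcxr, a carbonyl reductase of sugar metabolism, was at 34.9, 53.1, 21.9, 28.4 and 22.8 FPKM. The Pparg library was the highest, at 2.42-fold (2.16 to 2.71) its control and 2.32-fold the other. Trp53inp1, a cofactor of p53 in stress and autophagy, was at 4.81, 9.35, 4.59, 11.6 and 9.03 FPKM. The Pparg value was 2.04-fold (1.83 to 2.27) that of the empty expression vector but 1.04-fold that of the empty knockdown vector, since the controls differed by 1.97-fold. Trend subtraction took its Pparg log2 ratio from 0.89 to 1.04, past the 2-fold limit. Tigar, a phosphatase that lowers glycolytic flux, lay below its control in all 3 treatments, at log2 ratios of -0.31, -0.26 and -0.23.

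Of 7 genes grouped with the mitochondrial route to apoptosis, 5 were compared. Bbc3 alone was at least 2-fold different from its own control. It was higher with Pparg and after Setdb1 knockdown, beside 4.22% and 9.34% of all genes. Bbc3 encodes Puma, a BH3-only protein that neutralises the survival members of the Bcl2 family. It was at 14.0 FPKM with Myod1, 18.7 with Pparg, 7.81 in the empty expression vector library, 50.8 after Setdb1 knockdown and 6.19 in the empty knockdown vector library. All treated libraries lay above both controls, with the Setdb1 knockdown library far above the rest. The folds were 1.79 (1.54 to 2.09), 2.40 (2.08 to 2.76) and 8.20 (7.13 to 9.47), and against the other control 2.26, 3.02 and 6.50. The gene (ENSMUSG00000002083, chr7:16308393-16318205, plus strand) has a GC content of 65.2%. With GC and length trends subtracted, its log2 ratio was 2.28 after Setdb1 knockdown and 0.91 with Pparg, where it no longer reached the 2-fold limit.

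Bax, the pore-forming effector on which Puma acts, was abundant, at 137, 138, 115, 197 and 130 FPKM, and varied 1.72-fold over the libraries. The Setdb1 knockdown library was the highest at 1.52-fold (1.46 to 1.59) its control, and after trend subtraction its log2 ratio went from 0.60 to 0.06. Of the exonic bases of Bax, 12.2% are shared with the predicted gene Gm45808 on the same strand, so some reads could belong to either. Aen, a nuclease of apoptotic cells, was at 19.6, 17.7, 10.1, 23.7 and 16.9 FPKM, and Ei24, a membrane protein of the endoplasmic reticulum, at 39.0, 32.0, 24.4, 37.5 and 30.8 FPKM. Both were lowest in the empty expression vector library, and neither differed by 2-fold from its own control.

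Apaf1, the scaffold of the apoptosome, was at 5.70, 8.17, 9.42, 6.21 and 10.3 FPKM. The Myod1 and Setdb1 knockdown libraries were the lowest, both at a fold of 0.605 against their controls. After trend subtraction these log2 ratios of -0.64 and -0.64 became -0.33 and -0.31. Perp, a desmosomal protein of epithelia, had between 4 and 20 reads per library. Pmaip1, which encodes the BH3-only protein Noxa, had 0 reads in all 5 libraries. Its counting interval reached 0.0923 FPKM in the Myod1 library and less in the others.

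The death receptors and Pidd1 were low. Tnfrsf10b, the mouse receptor for Trail, was at 4.57, 4.85, 2.58, 6.23 and 4.16 FPKM. Each treated library lay above its own control, at log2 ratios of 0.64, 0.71 and 0.49, beside 0.53 between the controls. Pidd1, the scaffold that activates caspase-2, was at 6.69, 6.61, 4.07, 3.48 and 5.10 FPKM, above the control in both expression libraries and below it after Setdb1 knockdown, at a fold of 0.684. Fas had 4, 8, 0, 8 and 0 reads: all treated libraries had some and the controls none. The counting intervals of the treated libraries began at 0.0549, 0.117 and 0.122 FPKM and those of the controls reached 0.131 and 0.128 FPKM. These are intervals of single libraries, and their overlap does not compare a treated library with its control. No interval of the fold was computed for Fas, because the controls had 0 reads.

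Eda2r, a receptor of the tumour necrosis factor family that binds ectodysplasin A2, was another gene below 1 FPKM. It had 80 reads in the Myod1 library (0.864 FPKM) and 10, 4, 9 and 10 reads in the Pparg, empty expression vector, Setdb1 knockdown and empty knockdown vector libraries. The Myod1 library stood apart at 20.8-fold (7.81 to 78.1) its control and 8.51-fold (4.39 to 18.4) the other. It had not entered the counts above because of its level.

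The 5 DNA repair genes included none with a 2-fold log2 ratio against its own control. Xpc, which recognises distorted DNA in nucleotide excision repair, was at 8.46, 11.1, 10.2, 16.4 and 8.26 FPKM. The Setdb1 knockdown library was the highest, at 1.98-fold (1.82 to 2.17) its control. Ercc5, the endonuclease that acts later in the same pathway, stayed between 5.94 and 8.27 FPKM. Ddb2, a damage sensor for ultraviolet lesions, rested on 19 to 46 reads per library, and 23.8% of its exonic bases lie opposite the gene Acp2.

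Polk, a translesion polymerase, was at 1.37, 3.45, 2.97, 1.37 and 2.86 FPKM. The Myod1 and Setdb1 knockdown libraries were the low ones, at folds of 0.463 (0.371 to 0.577) and 0.479 (0.388 to 0.590). Rrm2b, the ribonucleotide reductase subunit induced by p53, was at 1.18, 1.01, 0.851, 0.450 and 1.06 FPKM, lowest after Setdb1 knockdown at a fold of 0.424 (0.318 to 0.560). Both Polk and Rrm2b are low in GC, at 41.6% and 39.4%. Trend subtraction moved the Setdb1 knockdown log2 ratio of Polk from -0.70 to -0.22 and that of Rrm2b from -0.51 to 0.11.

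Other known p53 targets outside the 32 were read from a separate list of 26 genes, of which 19 reached 1 FPKM. At least 2-fold higher were 5 with Myod1 (Ak1, Cd82, Gadd45a, Cdkn1a and Bid), 3 with Pparg (Epha2, Ak1 and Lif) and 5 after Setdb1 knockdown (Gadd45a, Sfn, Klhl26, Cdkn1a and Slc19a2), beside 14.0%, 4.22% and 9.34% of all genes. Epha2 and Lif reached 1 FPKM only in the Pparg library. Ckap2 was lower after Setdb1 knockdown, at a fold of 0.139, beside 10.3% of all genes. All of these differences but that of Lif held against both controls. Of all genes, 11.9%, 3.34% and 5.80% were higher than both controls with Myod1, with Pparg and after Setdb1 knockdown. After Setdb1 knockdown 7.56% were lower than both. Median log2 ratios of the 19 genes were 0.61, 0.54 and 0.31 against their own controls and 0.28, 0.46 and 0.43 against the other. Cdkn1a, which encodes the cell cycle inhibitor p21, was at 425 FPKM with Myod1, 179 with Pparg, 119 in the empty expression vector library, 262 after Setdb1 knockdown and 119 in the empty knockdown vector library. The controls were level for Cdkn1a, and the folds were 3.57 (3.48 to 3.67) with Myod1 and 2.20 (2.14 to 2.26) after Setdb1 knockdown, with a log2 ratio of 0.58 for Pparg. Gadd45a, a stress sensor that binds p21 and PCNA, was 4.64-fold its control with Myod1 and 7.97-fold after Setdb1 knockdown. Ak1, an adenylate kinase abundant in muscle, was 14.8-fold and Cd82, a tetraspanin, 11.2-fold their controls with Myod1. Epha2, a receptor tyrosine kinase, was 7.19-fold its control with Pparg, and Sfn, which encodes the 14-3-3 sigma checkpoint protein, 5.80-fold its control after Setdb1 knockdown.

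Genes that act on p53 from upstream included higher and lower ones, with 18 of 22 on the list reaching 1 FPKM. With Myod1, 2 were at least 2-fold higher (Ppp1r13l and Ppp1r13b) and 2 lower (Atm and Chek1). With Pparg none differed by this much, and after Setdb1 knockdown Kat5 was higher while Hipk2, Chek1, Chek2, Atm and Usp7 were lower. Of all genes, 14.0% were higher and 7.55% lower with Myod1, 4.22% higher and 2.30% lower with Pparg, and 9.34% higher and 10.3% lower after Setdb1 knockdown. Atm, the kinase that signals DNA double-strand breaks to p53, was at 0.474, 2.95, 3.37, 0.397 and 3.31 FPKM. The checkpoint kinase Chek1 was at a fold of 0.192 with Myod1, 0.793 with Pparg and 0.0701 after Setdb1 knockdown. Both were low in the Myod1 and Setdb1 knockdown libraries and near the control level with Pparg. Hipk2, a kinase that phosphorylates p53 for apoptosis, was at a fold of 0.142 and Chek2 at 0.252 after Setdb1 knockdown. Ppp1r13l, which encodes the p53 inhibitor iAspp, was 2.63-fold its control with Myod1. Cdkn2a, whose Arf product restrains Mdm2, had 0 reads in all 5 libraries.

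Of 25 Bcl2 family and caspase genes, 22 reached 1 FPKM. At least 2-fold higher were 3 with Myod1, 2 with Pparg (Bok and Casp8) and 2 after Setdb1 knockdown (Bmf and Bok), beside 14.0%, 4.22% and 9.34% of all genes. Casp8 with Pparg and both Setdb1 knockdown differences did not reach 2-fold against the other control. At least 2-fold lower were 3 with Myod1 (Birc5, Casp2 and Bcl2) and 3 after Setdb1 knockdown, beside 7.55% and 10.3% of all genes, and Bcl2 with Myod1 was not 2-fold lower against both controls. With Myod1, the survival gene Bcl2l2 was 3.59-fold, cytochrome c (Cycs) 2.72-fold and the BH3-only gene Bmf 3.09-fold their control. Bok, a Bax relative, was 8.90-fold its control with Pparg. After Setdb1 knockdown Birc5, the mitotic protein survivin, was at a fold of 0.235 and the survival gene Bcl2 at 0.248.

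Genes of the integrated stress response were examined because Sesn2, Bbc3 and Gdf15 are known to answer to it as well as to p53. All 12 on the list were compared. After Setdb1 knockdown 6 were at least 2-fold higher and 1 lower than in the empty knockdown vector library, beside 9.34% and 10.3% of all genes, with a median log2 ratio of 1.03. The empty knockdown vector library was itself low for these genes: 7 of the 12 were at least 2-fold lower there than in the empty expression vector library, beside 1.44% of all genes, with a median of -1.03. Against the empty expression vector library the Setdb1 knockdown median was -0.05. Atf3 and Ppp1r15a, both induced by stress, were the 2 that were at least 2-fold higher than in both controls after Setdb1 knockdown, at 14.3-fold and 6.95-fold their own control and 2.68-fold and 2.20-fold the other, beside 5.80% of all genes. The chaperone Hspa5 was at least 2-fold lower than in both, at a fold of 0.494, beside 7.56% of all genes. With Myod1 and Pparg the list had medians of -0.60 and -0.71 against their own control and of 0.72 and 0.36 against the other, so its direction turned with the control. The part of the integrated stress response in the levels of Sesn2, Bbc3 and Gdf15 was not tested, nor was that of GC content in Sesn2 and Plk3, whose values after trend subtraction were 2.04 and 1.16 in the Setdb1 knockdown.

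**Figure D4:**
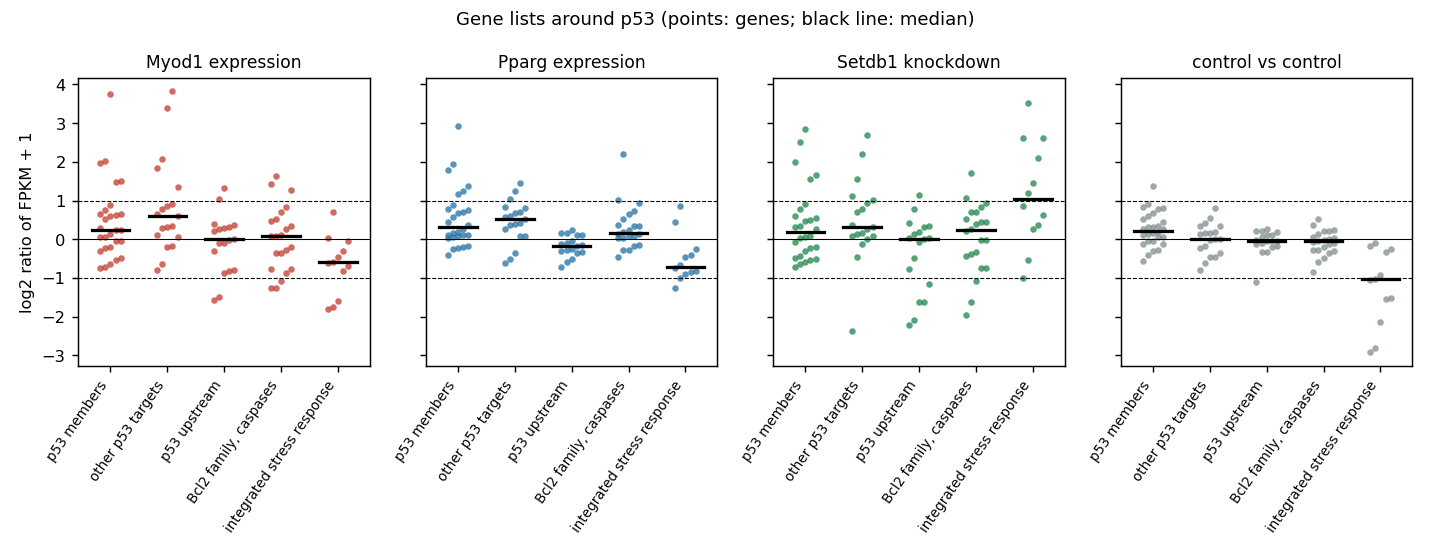
Log2 ratio of FPKM + 1 (vertical axis) of each gene reaching 1 FPKM (points) and its median (black line) for the p53 pathway genes and 4 related lists, 1 panel for each comparison; dashed lines mark a 2-fold difference. The integrated stress response list had a median of 1.03 in the Setdb1 knockdown panel and -1.03 between the controls, while the medians of the p53 pathway genes lay between 0.18 and 0.32 in all 4 panels.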

How the data were processed

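RNA from 5 B16F10 libraries, 1 per group, was extracted with TRIzol and made into libraries with the NEBNext Ultra RNA kit, per the labels' protocols. The submitters' processing notes name CASAVA, HISAT2, featureCounts 1.5.0-p3 and GRCm38; the annotation release and the strand setting are not given in the sources used here. The authors deposited FPKM values per gene. FPKM times gene length moved in steps of 1 read for 100% of the values of each library (within 0.01 reads), so the reads could be recovered. The number by which the authors divided equalled median-of-ratios size factors times a constant, so the FPKM values are already scaled between libraries; it was 0.859 to 1.10 times the reads. Gene positions come from the deposited table, and 98.3% matched GENCODE M21.

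Genes with at least 1 FPKM in at least 1 of 5 libraries were compared on log2(FPKM + 1). Levels have 95% Wilson intervals, and folds exact (Clopper-Pearson) ones; folds against 0 reads use a floor of 3 reads. Library sizes limit precision only for counting, and with 1 library per group no test was possible. The 32 genes, all lists and markers were chosen with earlier results of these data known. All 32 genes could be named; every library's value was to be given for those at least 2-fold different from both controls and for Trp53, Mdm2, Mdm4 and Ppm1d, and up to 5 genes of each other list and treatment by the same limit. Other pseudocounts, filters, fold limits, scalings and the other control were tried. The trend subtraction (medians of 20 bins of GC content and of length, 5 rounds) and the search for pairs of decamers were added after seeing the data. Scripts (Python 3.11.15, numpy 2.4.6, pandas 2.3.3, scipy 1.17.1, matplotlib 3.10.9) were tested on simulated data.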

Additional observations from a re-analysis of the deposited data

How the results depend on the processing

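No paired analysis was possible because each group has 1 library. Counts of members at least 2-fold higher with Myod1, with Pparg, after Setdb1 knockdown and between the controls (5, 6, 5 and 1) were the same without a filter on low values, with a minimum mean level, after division by the column sum, after centring and after scaling to the 75th percentile. The shares of all genes did not stay the same. Without a filter the same number (1798) was higher with Myod1, but out of 54699 rather than 12842. Members then numbered 32 rather than 28, and 25 with a minimum mean level. For Myod1 14.0% were higher as deposited, 3.29% without a filter, 12.8% with a minimum mean level and 9.64% after division by the column sum. After centring 13.6% were higher, and after scaling to the 75th percentile 11.6%. In the same order, the shares were 4.22%, 0.991%, 3.87%, 5.26%, 4.37% and 4.39% with Pparg. After Setdb1 knockdown they were 9.34%, 2.19%, 9.18%, 8.28%, 9.24% and 7.93%. With a pseudocount of 0.1, 3 members were lower with Myod1 and 2 after Setdb1 knockdown, beside 13.2% and 16.3% of all genes. Higher were 5 with Myod1, 8 with Pparg (Gdf15 and Trp53inp1 added), 6 after Setdb1 knockdown (Gdf15 added) and 2 between the controls. Of all genes, 18.3%, 8.81%, 15.0% and 3.26% were higher in the same order. A 4-fold limit left 2, 1, 3 and 0 higher members beside 4.35%, 0.709%, 0.919% and 0.140% of all genes. A 1.5-fold limit gave 11, 12, 8 and 7 beside 24.4%, 10.8%, 21.8% and 4.41%, with 3 lower members each for Myod1 and Setdb1 knockdown beside 19.3% and 21.9%. Against the other control the median was 0.08 for Myod1, 0.055 for Pparg and 0.62 for Setdb1 knockdown. Members higher were then 5, 5 and 9, beside 15.1%, 5.52% and 8.72% of all genes, and Ccng1 turned to -0.0008 with Pparg. Subtracting GC and length trends made 1 member (Phlda3) lower after Setdb1 knockdown, beside 8.74% of all genes. It replaced Bbc3 by Trp53inp1 among the members higher with Pparg. The counts of higher members stayed at 5, 6, 5 and 1, beside 12.3%, 3.73%, 6.67% and 1.04% of all genes.

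Division by the column sum moved the members' Myod1 median from 0.24 to -0.10. The Myod1 median of all genes went from 0.02 to -0.26 by that division and to -0.11 by the 75th percentile. Of the genes at least 2-fold different with Myod1, 65.0% were higher as deposited, 39.4% after division by the column sum and 52.7% after scaling to the 75th percentile. Log2 ratios of single genes, which the filters cannot change, moved by more than their counting interval in 64 cases under the other settings, some with a change of sign such as Mdm2 against the other control, and 1 value past the 2-fold limit turned negative. Counting error is widest for Gdf15, Ddb2, Eda2r, Fas and Perp.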

Other observations

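Trp63 and Trp73, the relatives of Trp53 that bind the same element, were looked at after their values were seen. Trp63, a gene known from epithelia and from late muscle differentiation, had 103 reads in the Myod1 library (0.781 FPKM), 2 in the Pparg library and 0 in the other 3 libraries. With Myod1 it was at least 35.7-fold higher, taking the control at 3 reads. Trp73 had 4, 2, 0, 4 and 0 reads in the Myod1, Pparg, empty expression vector, Setdb1 knockdown and empty knockdown vector libraries. Both stayed below 1 FPKM in all libraries, and reads do not tell which of their promoters or isoforms was used.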
